A study of Rattus norvegicus with 138 samples.

Results

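The genes described here are the 6 that encode the machinery for making, storing and recapturing noradrenaline and adrenaline: Th, Ddc, Dbh, Pnmt, Slc18a2 and Slc6a2. They were taken by gene symbol from the tables of expected read counts of 3 brainstem regions, and each symbol matched 1 of 32883 rows in every table. The regions are the nucleus of the solitary tract (NTS), the caudal ventrolateral medulla (CVLM) and the rostral ventrolateral medulla (RVLM), punched from 46 female rats. The rats were spontaneously hypertensive rats (SHR, SHR/NHsd) and normotensive Wistar-Kyoto rats (WKY, WKY/NHsd), both from Envigo, with no treatment named in the labels. WKY rats numbered 5 at 8 wk of age, 4 at 10 wk, and 3 each at 12, 16 and 24 wk, and SHR numbered 5 at 8 wk, 5 at 10 wk, and 6 each at 12, 16 and 24 wk. By the study's methods, punches were taken on both sides from frozen sections, and the punches of 1 region of 1 rat made 1 library. WKY and SHR are inbred strains, so a difference between them is a difference between these lines at a given age, and the punches hold whatever cells lay under them. In such bulk samples, fewer catecholamine cells and less of a transcript per cell cannot be told apart.

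Catecholamines are made in sequence. Tyrosine hydroxylase (Th) turns tyrosine into L-DOPA and is the rate-limiting enzyme, aromatic L-amino acid decarboxylase (Ddc) turns L-DOPA into dopamine and is shared with serotonin neurons, dopamine beta-hydroxylase (Dbh) makes noradrenaline inside the vesicle, and phenylethanolamine N-methyltransferase (Pnmt) makes adrenaline from it. The vesicular monoamine transporter Slc18a2 (VMAT2) loads the vesicles of every monoamine neuron, and the noradrenaline transporter Slc6a2 (NET) takes noradrenaline back into the terminal. In the medulla, noradrenergic neurons of the A1 and A2 groups lie in the CVLM and NTS, and adrenergic neurons of the C1 and C2 groups lie in the RVLM and near the NTS, where C1 neurons drive sympathetic outflow and blood pressure.

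The 250 bases before the transcription start are shown for 3 of the genes, those with a match to a cyclic AMP response element (CRE) or its core. In Th a CRE is known to lie in these bases. The sequences are RefSeq's on the rat build GRCr8, which is not the build rn6 used for the counts. They are written 5′ to 3′ on the strand of the gene, Th at chr1:207508219-207508468 (minus strand), Dbh at chr3:30886078-30886327 (plus strand) and Slc18a2 at chr1:268399771-268400020 (plus strand). Capitals mark matches to the CRE (TGACGTCA) or to its core (TGACG), each searched on both strands.
Th: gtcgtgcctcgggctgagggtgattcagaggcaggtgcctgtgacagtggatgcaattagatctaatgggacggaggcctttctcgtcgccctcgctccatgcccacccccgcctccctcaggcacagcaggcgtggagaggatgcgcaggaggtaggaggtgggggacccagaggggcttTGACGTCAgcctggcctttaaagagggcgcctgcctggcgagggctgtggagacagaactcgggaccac
Dbh: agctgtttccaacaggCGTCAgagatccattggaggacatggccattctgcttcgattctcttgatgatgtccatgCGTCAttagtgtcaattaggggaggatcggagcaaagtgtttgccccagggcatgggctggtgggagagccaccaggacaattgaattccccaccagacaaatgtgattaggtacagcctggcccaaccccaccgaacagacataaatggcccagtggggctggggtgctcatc
Slc18a2: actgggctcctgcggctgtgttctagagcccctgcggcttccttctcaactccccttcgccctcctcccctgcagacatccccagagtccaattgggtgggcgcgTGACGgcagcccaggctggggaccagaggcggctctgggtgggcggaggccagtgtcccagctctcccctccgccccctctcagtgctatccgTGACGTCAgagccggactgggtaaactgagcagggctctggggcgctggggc
A whole CRE began at -69 in Th and at -52 in Slc18a2, counted in bases from the start, and 1.59% of 33469 RefSeq promoters of the same length hold one. Dbh had no whole CRE and had the core 2 times on the opposite strand, at -234 and -174, and Slc18a2 had a further core at -145. The windows of the 3 starts of Ddc, which are not printed, held neither the CRE nor its core. The core is also part of every whole CRE, and 18.2% of promoters hold it. Other motifs searched were AP-1 (TGANTCA), found in Th at -230 and in the first of 3 starts of Ddc at -163 (6.34% of promoters), the E-box (CANNTG), found in all 4 genes with a sequence (65.5% of promoters), and the GC box (GGGCGG), found in Slc18a2 at -105 and -75 (30.5% of promoters). The homeodomain core (TAATTA, 4.86% of promoters) was not among the letters of these windows. Of the 6 genes, 4 had a sequence in the table, and Pnmt and Slc6a2 did not. These matches describe the letters only.

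Each library held 5904570 to 17889406 counts, with a median of 10143018. The 6 genes passed the filter on low values in every region. Values are given as CPM, counts scaled to the size of the library with TMM factors, within a region for comparisons of strain and age and over the libraries of all 3 regions for comparisons between regions, so that the level of a library can differ slightly between these scales. Since transcript length is not part of CPM, levels are compared between samples and not between genes, except as ratios to Dbh that are then compared between samples. Markers of other cells were checked. Slc6a3, the transporter that defines dopamine neurons, was at most 1.09 CPM in any library, and the serotonin neuron marker Tph2 had medians of 23.7 CPM (NTS), 5.18 (CVLM) and 2.62 (RVLM). Chat, the marker of cholinergic and motor neurons, had a median of 231 CPM in the RVLM against 17.8 in the CVLM and 67.0 in the NTS.

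Of these libraries, 2 stood apart. The CVLM library of WKY replicate 4 at 10 wk had 120 CPM of Tph2 and 29.6 CPM of the serotonin transporter Slc6a4, where the other 45 reached at most 16.0 and 2.11 CPM. The same library had the lowest Th (52.2 CPM), Dbh (24.0), Pnmt (11.8) and Slc6a2 (1.96) and the highest Ddc (23.3) of the 46 CVLM libraries. The RVLM library of SHR replicate 2 at 8 wk had the highest Th (144 CPM), Dbh (59.3), Slc18a2 (55.1) and Slc6a2 (15.9) of its region. Library names also end in a number, 1 or 2, whose meaning is not given. All libraries of 10 wk carry the 2, as do WKY replicates 3 to 5 at 8 wk and 1 SHR each at 12 and 24 wk, so an age of 10 wk and the number can be told apart only through those 5 rats. For 2 CVLM libraries of 8 wk, 1 of each strain, the title and the age label disagree, and they were grouped by the title.

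The RVLM punches held the least of 5 of the 6 transcripts, and the NTS punches held the least Pnmt. Over the 46 rats, Dbh averaged 67.5 ± 16.6 CPM (SD) in NTS punches, 82.4 ± 19.7 in CVLM punches and 11.9 ± 10.1 in RVLM punches. Th averaged 132 ± 27.2, 134 ± 37.7 and 54.6 ± 30.7 CPM in the same order. In the RVLM its libraries ran from 8.34 to 151 CPM, so that some RVLM punches overlapped the NTS and CVLM, while Dbh ran from 1.70 to 62.1 CPM.

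**Figure D1:**
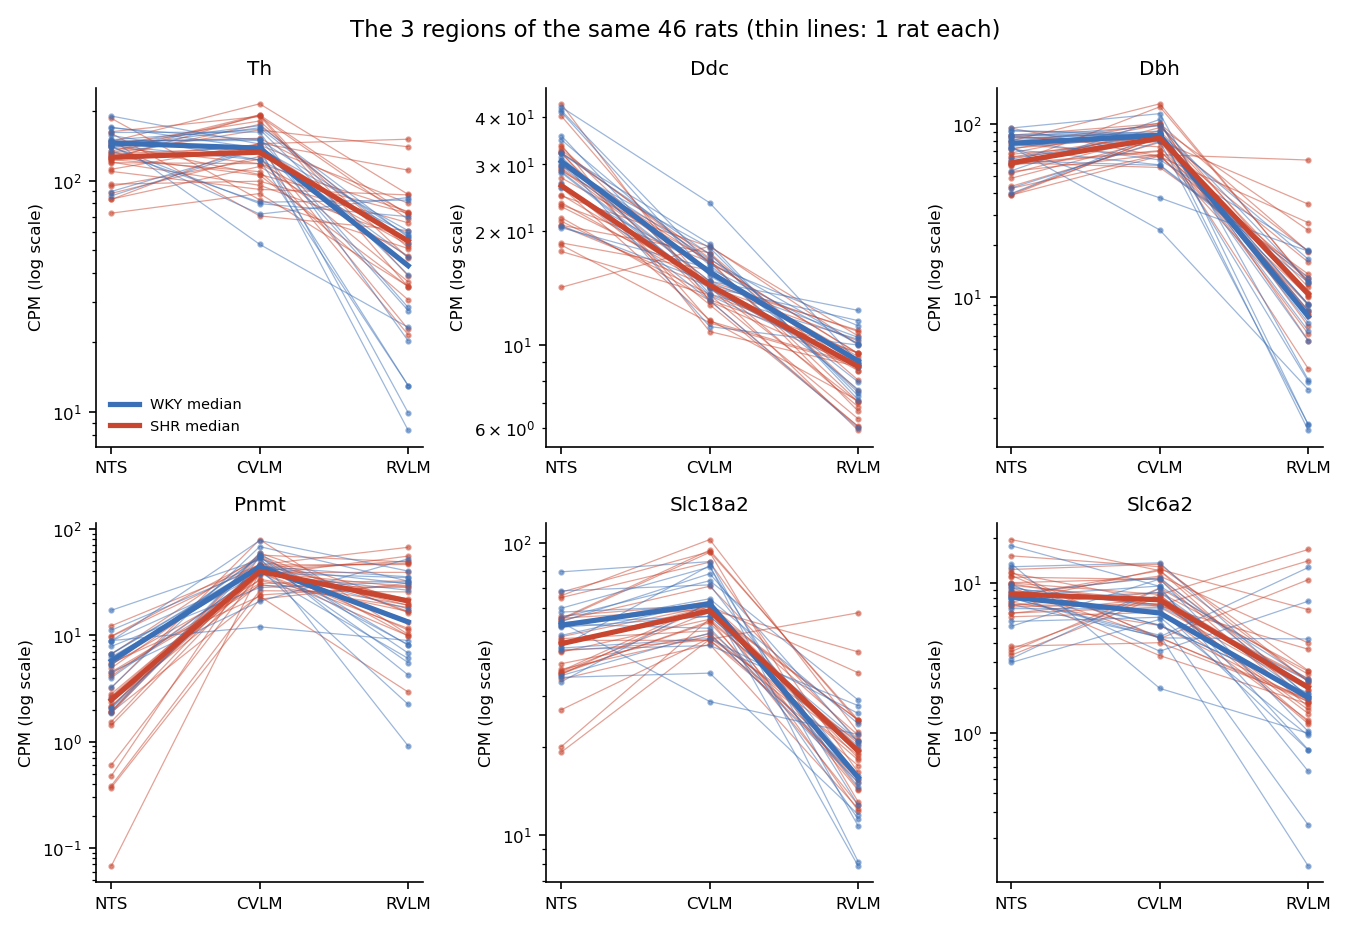
CPM of each gene (log axis) in the NTS, CVLM and RVLM of the same 46 rats, scaled over the libraries of all 3 regions. Thin lines join the regions of 1 rat, and thick lines join the medians of WKY (blue) and SHR (red). Th, Ddc, Dbh, Slc18a2 and Slc6a2 end lowest in the RVLM, and Pnmt peaks in the CVLM.

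Differences between regions were tested in 1 edgeR fit with the rat as a block, and 30 of 36 values of gene, strain and pair of regions had an adjusted p under 0.05. Region differences were common among all genes: 62.2% of 14043 genes differed between the NTS and RVLM in WKY and 64.4% in SHR, 39.0% and 44.8% differed between the CVLM and RVLM, and 52.5% and 55.7% differed between the NTS and CVLM. Against the RVLM, the 6 genes differed in 12 of 12 values from the NTS and in 12 of 12 from the CVLM. Between the NTS and CVLM, 6 of 12 did.

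Dbh showed the steepest fall towards the RVLM. The NTS exceeded the RVLM by 9.25-fold in WKY (log2 3.21, SE 0.23) and by 4.89-fold in SHR (log2 2.29, SE 0.18), and the CVLM exceeded the RVLM by 10.0-fold in WKY and 6.68-fold in SHR. For Th, the NTS exceeded the RVLM by 3.63-fold in WKY and 2.12-fold in SHR (adjusted p = 5.54e-14 and 7.53e-10, edgeR). Its NTS and CVLM levels were close, with differences of 0.15 (SE 0.18) in WKY and -0.12 (SE 0.14) in SHR on the log2 scale (adjusted p = 0.518 and 0.477, edgeR).

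The vesicle transporter Slc18a2 averaged 47.1 ± 12.5 CPM in NTS punches, 61.7 ± 16.3 in CVLM punches and 19.9 ± 8.82 in RVLM punches. The NTS exceeded the RVLM by 2.87-fold in WKY and 2.07-fold in SHR, and the CVLM of SHR exceeded their NTS by 1.43-fold (adjusted p = 3.94e-05, edgeR). The reuptake transporter Slc6a2 averaged 8.62 ± 3.53 CPM in NTS punches, 7.71 ± 2.96 in CVLM punches and 3.03 ± 3.6 in RVLM punches, where the SD exceeded the mean. Its RVLM median was 1.80 CPM and its highest library reached 16.7 CPM, above the CVLM maximum of 13.6 CPM.

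Ddc and Pnmt had profiles of their own. Ddc fell stepwise from the NTS (28.6 ± 6.91 CPM) to the CVLM (15.1 ± 2.40) and the RVLM (8.71 ± 1.62), and each step was called in both strains. The NTS had 2.0-fold (WKY) and 1.78-fold (SHR) more Ddc than the CVLM, and the CVLM had 1.72-fold and 1.75-fold more than the RVLM. In the RVLM the 46 Ddc values differed by at most 2.08-fold, while those of Dbh in the same libraries differed by 36.6-fold. Serotonin neurons also use Ddc. Their 3 listed markers, all in the tables, summed to 11.2 to 41.1 CPM (NTS), 2.71 to 151 CPM (CVLM) and 1.17 to 17.2 CPM (RVLM), and their part in the Ddc levels was not tested.

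Pnmt marked the CVLM and RVLM punches. It averaged 42.9 ± 14 CPM in the CVLM, 23.9 ± 16.3 in the RVLM and 4.57 ± 3.62 in the NTS. The CVLM exceeded the NTS by 7.63-fold in WKY and 13.5-fold in SHR (log2 of NTS minus CVLM -2.93, SE 0.32, and -3.75, SE 0.27). The RVLM exceeded the NTS by 2.85-fold and 7.68-fold, and the CVLM exceeded the RVLM by 2.68-fold and 1.76-fold (adjusted p = 7.74e-05 and 0.00272, edgeR). In the NTS, Pnmt rested on few reads, from 1 to 171 counts in a library.

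Within a library, the ratio of 1 gene to Dbh does not depend on how much catecholamine tissue the punch caught if both transcripts come from the same cells. The log2 ratio was compared between the regions of each rat by permutation of the sign (100000 resamples, two-sided, adjusted over 15 comparisons). It differed at or next to the smallest p that these resamples give (adjusted p = 1e-05 or 2e-05) in 14 of 15 comparisons, and the exception was Slc18a2 between the NTS and CVLM (difference -0.11, SD 0.43, higher in the NTS in 16 of 46 rats, adjusted p = 0.0802). All 15 comparisons share Dbh as the denominator, and how often the ratio of another gene to Dbh would differ was not computed. The count therefore does not set these genes apart. Median CPM ratios of Th to Dbh were 1.98 (NTS), 1.59 (CVLM) and 4.93 (RVLM). The NTS had the higher ratio of NTS and RVLM in 1 of 46 rats, and the CVLM that of CVLM and RVLM in 0 of 46. Pnmt to Dbh had medians of 0.0578 (NTS), 0.516 (CVLM) and 2.42 (RVLM). For this ratio, the log2 difference of NTS minus RVLM was -5.16 (SD 1.64 over 46 rats).

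**Figure D2:**
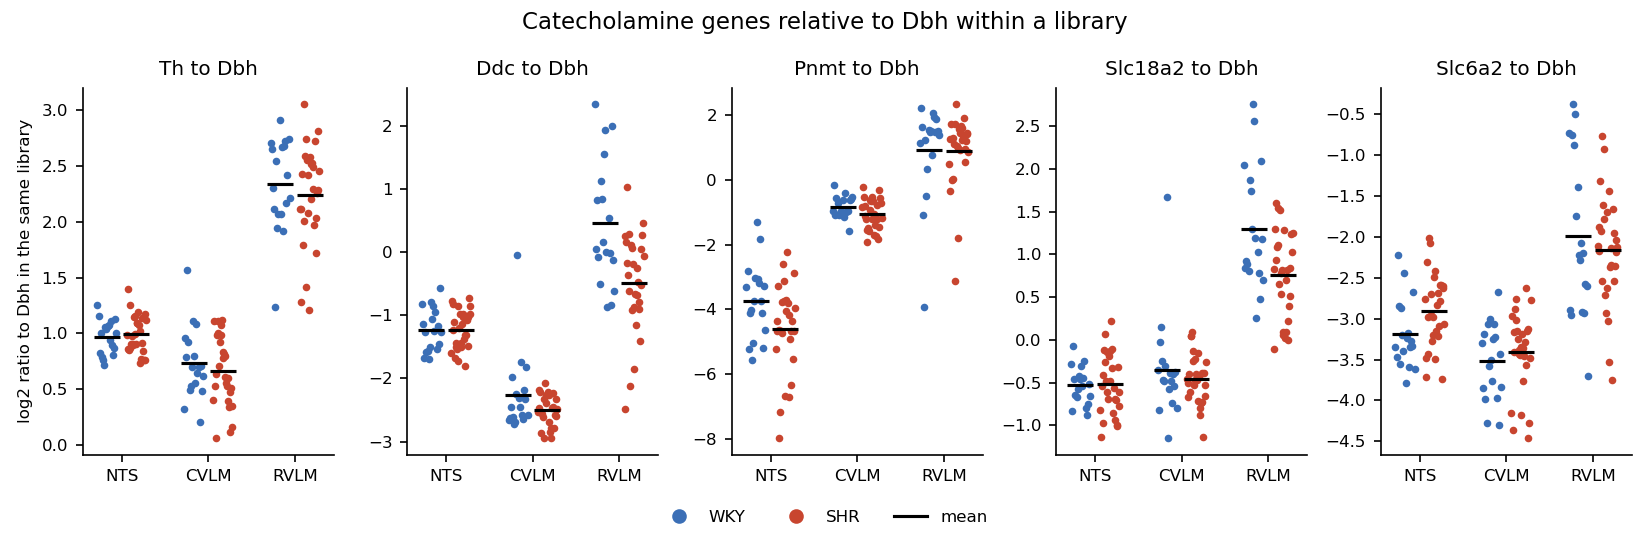
Log2 ratio of each gene to Dbh within a library (y axis, log2 CPM with a prior count of 2), by region, for WKY (blue) and SHR (red). Each point is 1 of 46 libraries per region, and bars are means. RVLM ratios lie above the other regions for all 5 genes, and those of Ddc and Slc18a2 lie lower in SHR than in WKY.

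Slc18a2 to Dbh was 0.689, 0.724 and 1.82 in NTS, CVLM and RVLM as a median, and Slc6a2 to Dbh was 0.118, 0.0964 and 0.224. Ddc to Dbh was 0.425, 0.181 and 0.936. By these medians, every other gene of the set was higher relative to Dbh in the RVLM than in the NTS and CVLM, where Dbh was lowest. The 5 listed markers of cholinergic and motor neurons, Chat among them, summed to 654 to 2527 CPM in the RVLM against 173 to 754 in the NTS and 60.3 to 256 in the CVLM, and the part of other cells in these ratios was not tested.

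Differences between SHR and WKY were tested with edgeR at each age and as the mean over the 5 ages. In the NTS, 2 of 36 values were called, both lower in SHR at 8 wk, where 5.79% of 13793 genes were called. Over all strain contrasts of the NTS, 4.78% of the values of all genes were called. In the CVLM and in the RVLM, 0 of 36 values were called by edgeR, with 5 and 6 values at an unadjusted p under 0.05, against 5.85% and 4.75% of the values of all genes called there, and DESeq2 also called 0 in both.

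**Figure D3:**
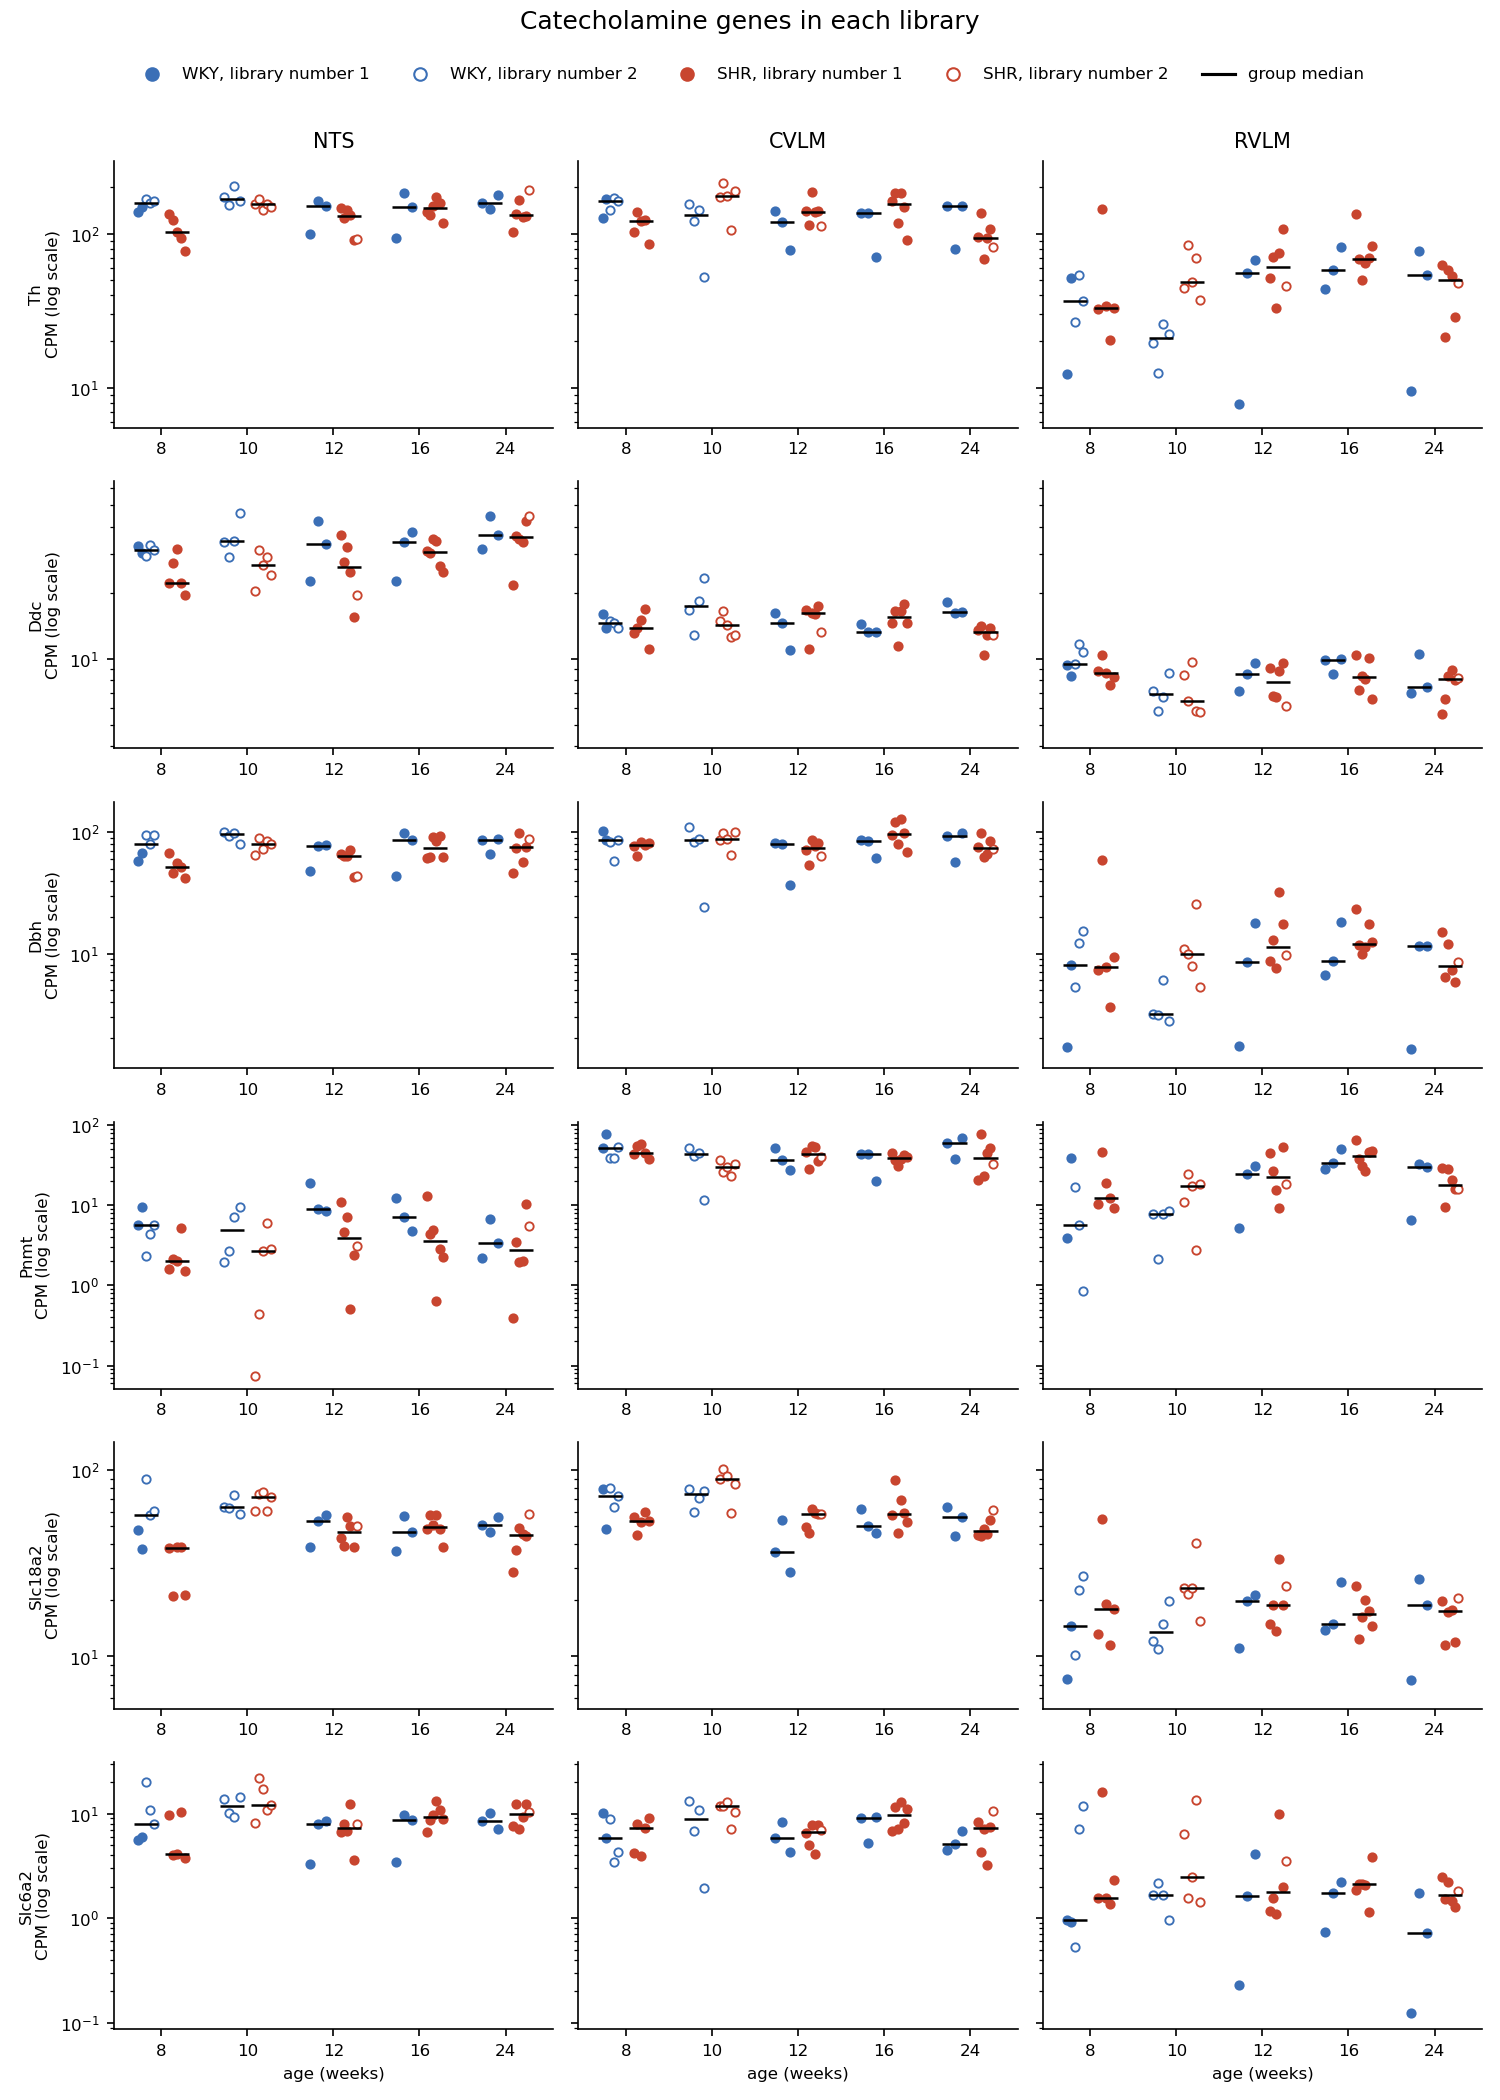
CPM of each gene (rows, log axis) by age in wk and strain in the NTS, CVLM and RVLM (columns). Each point is 1 library, blue for WKY and red for SHR, and bars are group medians. Open points carry the higher of the library numbers. In the NTS at 8 wk all SHR points of Th lie below the WKY points, and those of Slc18a2 overlap through 1 WKY rat. The widest spreads are those of Pnmt in the NTS and Slc6a2 in the RVLM.

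Slc18a2 in the NTS at 8 wk had the lowest adjusted p of the strain values. The WKY rats had 47.9, 37.6, 90.2, 57.5 and 60.6 CPM, and the SHR had 38.1, 21.0, 38.5, 38.9 and 21.5 CPM. The groups overlapped through 1 WKY rat, whose 37.6 CPM lay below 3 of the SHR. SHR were 1.86-fold lower (log2 -0.90, SE 0.19, adjusted p = 0.0018, edgeR). At the later ages the difference was between -0.22 and 0.11, and at 10 wk the SHR had 60.2 to 76.5 CPM where the WKY rats had 58.2 to 73.7 CPM.

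Th in the NTS at 8 wk did not overlap between strains. WKY had 139, 150, 167, 159 and 164 CPM, and SHR had 134, 123, 102, 94.0 and 77.5 CPM, so that every SHR was lower. The difference was -0.56 (SE 0.16, adjusted p = 0.0349, edgeR), or 1.47-fold. Dbh had 58.3, 67.3, 94.5, 79.4 and 94.7 CPM in these WKY rats and 67.5, 46.6, 56.1, 52.0 and 42.3 CPM in the SHR, with a difference of -0.57 (SE 0.20, adjusted p = 0.0705, edgeR) that did not pass. Of the 8-wk rats left out in turn, only WKY replicate 1, the lowest of its group, let Dbh pass (-0.64, adjusted p = 0.029, edgeR).

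At 8 wk, 3 of the 5 WKY rats and none of the SHR carried the library number 2, and neither call held in the fits that took account of it. With the number as a term, the difference was -0.57 for Slc18a2 (adjusted p = 0.168) and -0.47 for Th (adjusted p = 0.259, edgeR). With the 5 number-2 rats outside 10 wk left out it was -0.43 and -0.45 (adjusted p = 0.414 and 0.351, edgeR), with fewer WKY rats in the group. In these fits a part of the number and a loss of precision cannot be told apart. Without regard to the number, a fit to the 8-wk libraries alone gave -0.86 and -0.53 (adjusted p = 0.11 and 0.0987, edgeR). The 5 listed neuronal markers summed to 2759 to 4487 CPM in the WKY rats of 8 wk and 3042 to 3883 CPM in the SHR, and their part in the differences was not tested. The call of Th was also lost when any of 6 of the 10 rats was left out (adjusted p up to 0.108), and that of Slc18a2 was kept in each of these 10 fits.

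No other NTS value was called. As a mean over the ages, a contrast in which 11.2% of all genes were called, 5 of the 6 genes had negative log2 differences, and the median over the 6 was -0.22 against 0.01 for all genes. The fitted values were -0.25 for Ddc (SE 0.09, adjusted p = 0.0698), -0.21 for Th (SE 0.08, adjusted p = 0.0812), -0.24 for Dbh (SE 0.09, adjusted p = 0.109), -0.20 for Slc18a2 (SE 0.09, adjusted p = 0.162) and 0.07 for Slc6a2 (SE 0.16, adjusted p = 0.895, all edgeR). The means of Th, Ddc and Dbh passed when WKY replicate 1 of 16 wk, with the lowest Th of its group, was left out (adjusted p = 0.0246, 0.0385 and 0.0299, edgeR). In most of the 46 fits with 1 library left out, none of these 3 means passed, and Dbh passed in no other.

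Pnmt had the lowest fitted strain difference in the NTS with the widest error, at -0.89 (SE 0.34, adjusted p = 0.0824, edgeR) as a mean over the ages. It passed without SHR replicate 1 of 16 wk (-1.02, adjusted p = 0.0328, edgeR), the highest of its group, which was 1 of 4 such rats among 46 left out in turn. At 12 wk the WKY rats had 19.1, 9.10 and 8.45 CPM, and the 6 SHR had 0.502 to 10.9 CPM with a median of 3.86. At 10 wk the WKY rats had 1.96, 2.70, 7.22 and 9.62 CPM, and the SHR had 0.074, 0.435, 2.66, 5.97 and 2.84 CPM, of which the lowest was a single count. Strains overlapped at every age.

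**Figure D4:**
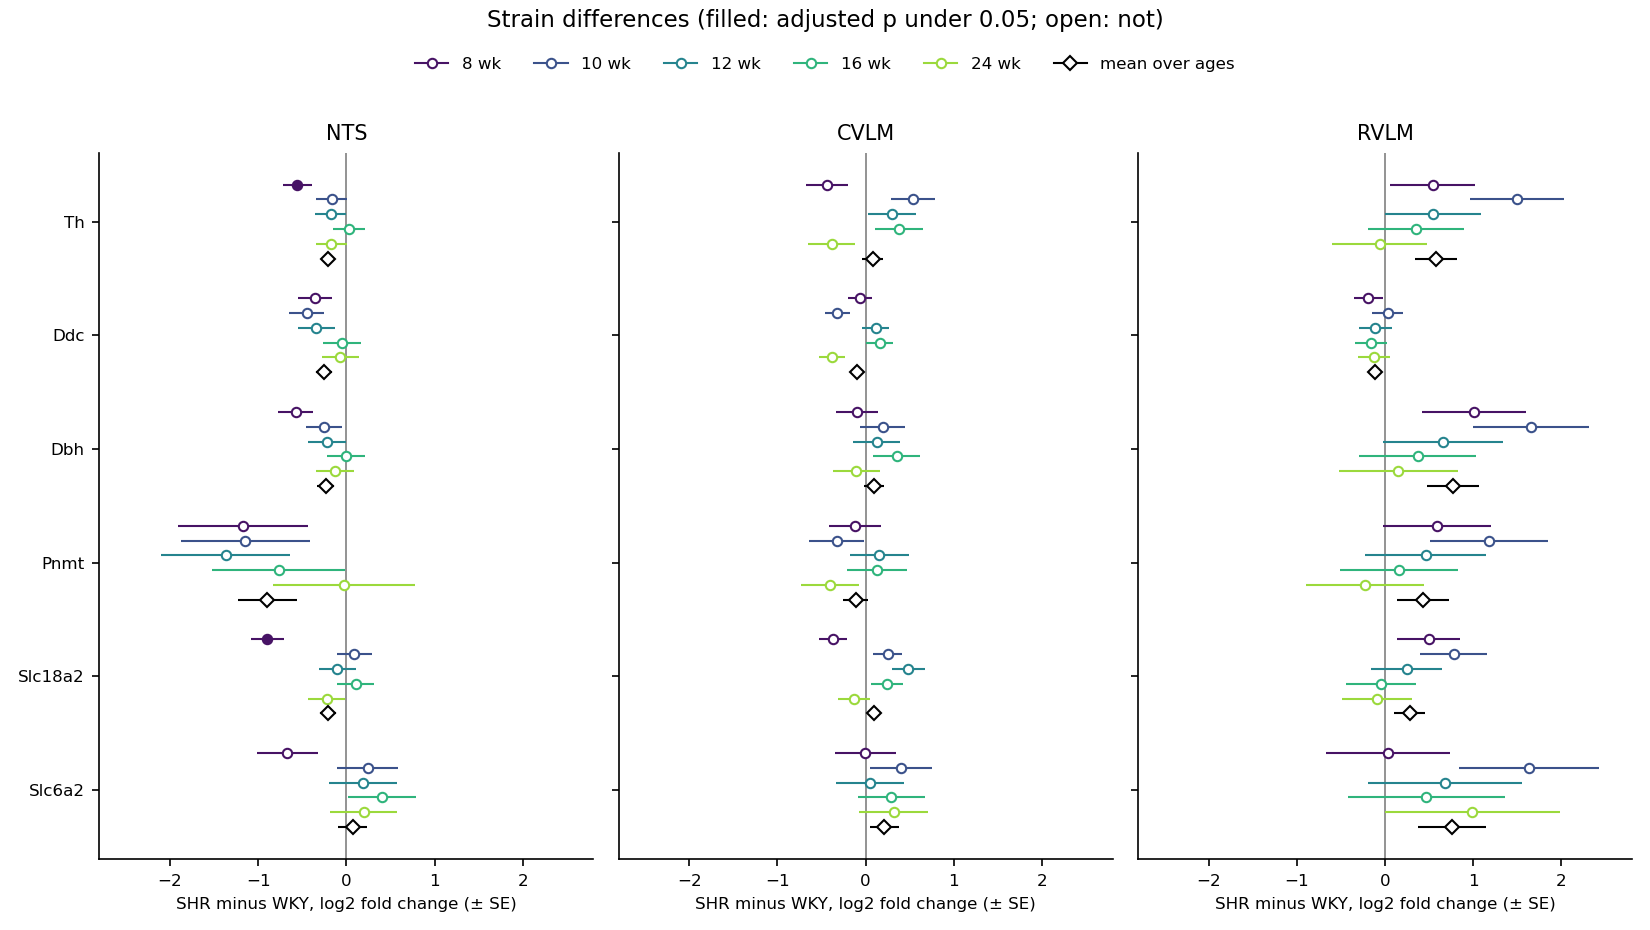
Strain difference of each gene (SHR minus WKY, log2, x axis) in the NTS, CVLM and RVLM, by age and as the mean over ages. Points are edgeR estimates with bars of 1 SE, and filled points have an adjusted p under 0.05, which only Slc18a2 and Th in the NTS at 8 wk reached. NTS estimates lie mostly below 0 and RVLM estimates mostly above 0.

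In the CVLM no strain difference passed, and the fitted values of Th lay below 0 at 8 and 24 wk and above 0 at 10, 12 and 16 wk. Mean differences over the ages, a contrast with 12.3% of all genes called, ran from -0.11 for Pnmt (SE 0.14) to 0.21 for Slc6a2 (SE 0.17), and the median over the 6 genes was 0.09 against -0.003 for all genes. Th had the lowest and the highest value at single ages. At 8 wk it was 127, 168, 142, 171 and 163 CPM in WKY and 102, 138.1, 120, 123 and 85.9 CPM in SHR, a difference of -0.44 (SE 0.24, adjusted p = 0.279, edgeR), and at 10 wk 156, 121, 143 and 52.2 CPM in WKY, the last from the library that stood apart, and 172, 212, 175, 105 and 190 CPM in SHR, a difference of 0.54 (SE 0.25, adjusted p = 0.459, edgeR). Without that library the value at 10 wk was 0.29 (adjusted p = 0.923, edgeR). The groups overlapped at both ages. Ddc at 24 wk was the case in which the groups did not overlap: WKY had 18.2, 16.2 and 16.3 CPM and the 6 SHR had 10.5 to 14.1 CPM with a median of 13.2, a difference of -0.38 (SE 0.15, adjusted p = 0.112, edgeR). Slc18a2 at 8 wk had 79.7, 48.6, 80.7, 63.6 and 72.6 CPM in WKY and 56.1, 44.7, 52.5, 60.0 and 53.7 CPM in SHR, and the difference of -0.37 (SE 0.16, adjusted p = 0.154, edgeR) did not pass. At 12 wk the value was 0.48 (SE 0.18, adjusted p = 0.214, edgeR). Each passed in only 1 of the fits with a rat of that age left out. These rats were WKY replicate 2 at 8 wk (-0.48, adjusted p = 0.0448) and WKY replicate 2 at 12 wk (0.78, adjusted p = 0.0248, edgeR).

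In the RVLM, fitted differences were mostly positive and rested on widely spread libraries. As a mean over the ages, where 10.8% of all genes were called, 5 of 6 genes were above 0, with a median of 0.50 against 0.01 for all genes. Dbh had 0.77 (SE 0.29, adjusted p = 0.0938), Th 0.57 (SE 0.24, adjusted p = 0.131), Slc6a2 0.76 (SE 0.38, adjusted p = 0.244), Pnmt 0.43 (SE 0.30, adjusted p = 0.436), Slc18a2 0.28 (SE 0.17, adjusted p = 0.377) and Ddc -0.11 (SE 0.08, adjusted p = 0.464, all edgeR). Of the 46 libraries left out in turn, only WKY replicate 3 of 12 wk let the Dbh value pass (0.93, adjusted p = 0.0423, edgeR).

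The largest RVLM differences stood at 10 wk. Th had 19.5, 12.5, 25.9 and 22.3 CPM in WKY and 44.5, 84.2, 48.6, 69.0 and 36.8 CPM in SHR, so that all SHR were higher (log2 1.5, SE 0.53, adjusted p = 0.202, edgeR). Dbh had 3.20, 3.13, 6.02 and 2.81 CPM in WKY and 11, 9.97, 7.90, 25.7 and 5.33 CPM in SHR, with an overlap of 1 SHR (1.66, SE 0.66, adjusted p = 0.341, edgeR). The others overlapped, with 1.64 for Slc6a2 (SE 0.79, adjusted p = 0.606), 1.18 for Pnmt (SE 0.67, adjusted p = 0.778), 0.78 for Slc18a2 (SE 0.38, adjusted p = 0.605, all edgeR) and 0.03 for Ddc (SE 0.17). The median over the 6 genes was 1.34 against -0.01 for all genes. Fitted to the libraries of 10 wk alone, Th passed (1.5, adjusted p = 0.0229, edgeR). Over the 90 comparisons of gene, region and age, groups did not overlap in 3, namely Th at 8 wk (NTS) and 10 wk (RVLM) and Ddc at 24 wk (CVLM), beside 6.22% of such comparisons of all genes.

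At 8 wk the RVLM of SHR held the library that stood apart. Dbh had 7.36, 59.3, 7.69, 3.65 and 9.35 CPM in SHR and 1.71, 8.02, 5.29, 12.3 and 15.5 CPM in WKY. Slc6a2 had 1.57, 15.9, 1.56, 1.35 and 2.31 CPM in SHR and 0.963, 0.926, 0.529, 7.18 and 11.8 CPM in WKY. Pnmt in the same order was 3.96, 38.4, 16.8, 5.75 and 0.850 CPM in WKY, so that the 2 rats with the highest Slc6a2 had the median and the lowest Pnmt of their group, and the SHR library with the highest Slc6a2 had 46.5 CPM of Pnmt. Without that library and the CVLM one, the count of called strain values stayed at 2. Both are NTS values, and the NTS was fitted apart, so the count shows only that no CVLM or RVLM value was gained.

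The strain difference was not shown to differ between regions. In the fit over all regions, 0 of 108 such values were called by edgeR, with 15 at an unadjusted p under 0.05, where 0.252% of all genes' values were called. The difference in the NTS minus that in the RVLM, as a mean over the ages (1.82% of all genes called), was -1.43 for Pnmt (SE 0.42, adjusted p = 0.0578), -0.77 for Th (SE 0.23, adjusted p = 0.069), -0.92 for Dbh (SE 0.28, adjusted p = 0.0721) and -0.47 for Slc18a2 (SE 0.18, adjusted p = 0.196, all edgeR). Of the 36 values of this pair of regions, 33 were below 0. With limma's voom, which called 0.382% of all genes' values, 5 of the 108 were called, the means over the ages of Pnmt (-1.88, adjusted p = 0.0064), Th (-0.87, adjusted p = 0.008) and Dbh (-1.0, adjusted p = 0.0163), Th at 10 wk (-1.69, adjusted p = 0.0387) and Slc18a2 at 8 wk (-1.20, adjusted p = 0.0435), all NTS minus RVLM.

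Whether a strain difference belonged to 1 age was tested as that age against the other 4. No value of 90 was called by edgeR, with 7 at an unadjusted p under 0.05, and 0.0102%, 0.139% and 0.00597% of all genes' values were called in the NTS, CVLM and RVLM. Slc18a2 at 8 wk came closest, with log2 -0.86 in the NTS (SE 0.22, adjusted p = 0.0895) and -0.58 in the CVLM (SE 0.18, adjusted p = 0.0814, edgeR), and both were called by DESeq2 (adjusted p = 0.0351 and 0.046), which called 3.43% and 3.93% of all genes in these contrasts.

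Changes with age were tested against 8 wk within each strain, and 6 of 144 values were called. Over these contrasts 3.65% (NTS), 5.81% (CVLM) and 2.86% (RVLM) of all genes' values were called. Of the 6 calls, 5 were rises in SHR at 10 wk, an age at which 27.1% of all genes in the NTS and 25.2% in the CVLM differed from 8 wk.

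In the NTS of SHR at 10 wk, 4 of the 6 genes rose. Slc18a2 went from 38.1, 21.0, 38.5, 38.9 and 21.5 CPM at 8 wk to 60.3, 74.7, 76.5, 60.2 and 72.3 CPM at 10 wk, without overlap (log2 1.12, SE 0.19, adjusted p = 0.00041, edgeR). Th went from the 8-wk values given above to 157, 167, 143, 157 and 149 CPM, again without overlap (0.54, SE 0.16, adjusted p = 0.0136, edgeR). Slc6a2 went from 9.77, 3.98, 4.09, 10.3 and 3.74 CPM to 8.14, 22, 17.1, 10.7 and 12.1 CPM (1.14, SE 0.34, adjusted p = 0.014), and Dbh went to 65.5, 89.3, 72.8, 84.2 and 79.7 CPM (0.56, SE 0.20, adjusted p = 0.0304, edgeR), both with overlap.

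In the CVLM, Slc18a2 gave both calls. In SHR it rose from 56.1, 44.7, 52.5, 60.0 and 53.7 CPM at 8 wk to 89.7, 101, 93.2, 58.6 and 84.7 CPM at 10 wk (0.68, SE 0.16, adjusted p = 0.0026, edgeR). In WKY it fell from 79.7, 48.6, 80.7, 63.6 and 72.6 CPM to 36.4, 54.1 and 28.3 CPM at 12 wk (-0.80, SE 0.19, adjusted p = 0.0171, edgeR), where 4.55% of all genes were called. Th of SHR in the CVLM at 10 wk was 0.59 above 8 wk (SE 0.24, adjusted p = 0.0646, edgeR). Pnmt had -0.68 (SE 0.30, adjusted p = 0.0903, edgeR), with 23.0 to 37.2 CPM at 10 wk and 38.0 to 57.5 CPM at 8 wk and no overlap. Groups did not overlap in 4 of the 144 comparisons, beside 5.66% of those of all genes. These were Slc18a2 and Th in the NTS and Pnmt in the CVLM of SHR at 10 wk, and Ddc in the CVLM of WKY at 24 wk. Left-out rats cost the call of Dbh in 6 of 10 fits, of Slc6a2 in 2, of Th in 1 and of the WKY fall in 3 of 8, and that of Slc18a2 in SHR in none of the 10 fits of either region.

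All libraries of 10 wk carry the number 2, and none of the SHR of 8 wk do. With the number as a term, none of the 6 calls remained, the rises of SHR at 10 wk being 0.63 for Slc18a2 (adjusted p = 0.784), 0.41 for Th (adjusted p = 0.784), 0.37 for Dbh (adjusted p = 0.794) and 0.59 for Slc6a2 (adjusted p = 0.805) in the NTS and 0.48 for Slc18a2 in the CVLM (adjusted p = 0.967), and the fall of WKY -0.68 (adjusted p = 0.318, edgeR). Neuronal markers moved with this contrast. Their sum over 5 genes was 6314 to 6581 CPM in the CVLM of SHR at 10 wk and 4160 to 4957 at 8 wk, and 3509 to 4099 against 3042 to 3883 in the NTS, and their part in the rises was not tested. With the same term, Slc18a2 in the NTS of SHR at 16 wk, which no number separates from 8 wk, was called at 0.67 (adjusted p = 0.0236), against an adjusted p = 0.0534 without the term (edgeR). Its values were 38.8 to 57.8 CPM with a median of 49.5 at 16 wk.

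In the RVLM, 0 of 48 age values were called by edgeR, with 3 at an unadjusted p under 0.05 in WKY and 0 in SHR, and 0 by DESeq2, which gave no adjusted p for 5 of the 48. The 3 were Ddc at 10 wk (-0.50, SE 0.18, adjusted p = 0.14), Slc6a2 at 24 wk (-2.31, SE 1.0, adjusted p = 0.189) and Pnmt at 16 wk, and none passed (edgeR). Pnmt in WKY went from the 8-wk values given above to 28.7, 33.8 and 50.5 CPM at 16 wk, with overlap (1.54, SE 0.68, adjusted p = 0.209, edgeR). Of the rats of these groups left out in turn, only WKY replicate 2 of 8 wk, the highest of its group, let the difference pass (2.52, adjusted p = 0.0472, edgeR). In SHR it had its highest RVLM group mean at the same age, with 27.0 to 64.5 CPM and a median of 41.5 at 16 wk against 9.25 to 46.5 CPM and a median of 12.5 at 8 wk.

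The ratio to Dbh was also compared between strains, by permuting the strain labels within each age (100000 resamples, two-sided, adjusted over 15 ratios). In the RVLM, 3 ratios were lower in SHR at 5 of 5 ages, and 2 of them passed. Ddc to Dbh differed by -0.91 on the log2 scale (mean log2 ratio 0.46 in WKY and -0.49 in SHR, adjusted p = 0.0173, permutation test), and Slc18a2 to Dbh by -0.51 (1.3 and 0.75, adjusted p = 0.0175, permutation test), while Th to Dbh had -0.12 (adjusted p = 0.766, permutation test). The first 2 also passed without the libraries that stood apart (-0.80 and -0.46, adjusted p = 0.0379 and 0.0408, permutation test). RVLM Ddc itself varied little, as given above, and Dbh varied much. In the NTS, Pnmt to Dbh was lower in SHR by 0.95 at 5 of 5 ages and Slc6a2 to Dbh higher by 0.32 at 4 of 5 (adjusted p = 0.0766 for both, permutation test), and neither passed. Without the number-2 libraries outside 10 wk both passed (adjusted p = 0.0312 and 0.0369, permutation test).

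Between rats of the same group, the genes varied together to different degrees in the 3 regions. Correlations were taken over 46 rats after the group mean was removed, with permutation within groups, and 29 of 45 pairs had an adjusted p under 0.05. They describe libraries that share their punch and depth. The share of pairs of other genes that would pass was not computed, so the count does not set these genes apart. Th and Dbh had the closest relation in the NTS and CVLM, with Pearson's r of 0.85 (NTS, rho 0.86), 0.81 (CVLM, rho 0.76) and 0.89 (RVLM, rho 0.87, permutation test, adjusted p = 6e-05 for each, the smallest that these resamples give). Without the 2 libraries farthest from the median of Th, r was 0.83, 0.73 and 0.85.

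**Figure D5:**
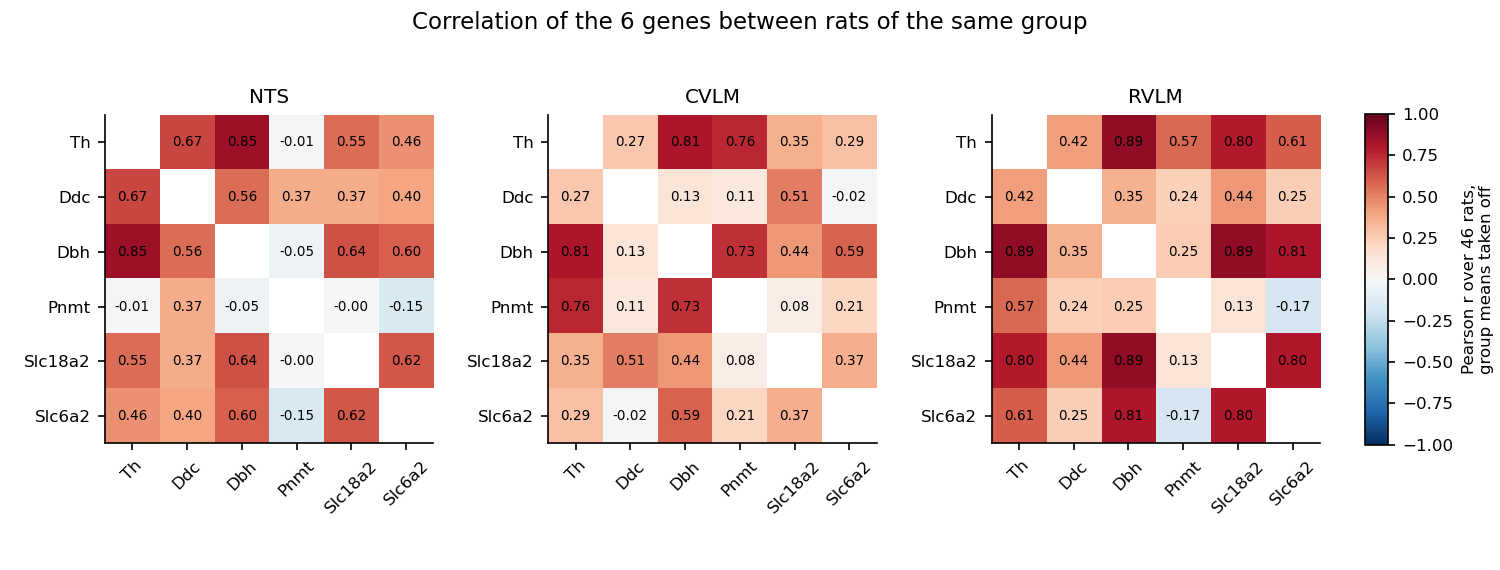
Pearson's r between each pair of genes over 46 rats, with group means taken off, in the NTS, CVLM and RVLM (blue negative, red positive). Th and Dbh lie at 0.85, 0.81 and 0.89, and Pnmt goes with Th and Dbh in the CVLM and with neither in the NTS.

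Slc18a2 and Slc6a2 followed Dbh most closely in the RVLM. Dbh and Slc18a2 had r of 0.64, 0.44 and 0.89 in NTS, CVLM and RVLM, and Dbh and Slc6a2 had 0.60, 0.59 and 0.81 (permutation test, adjusted p of 0.0137 or lower). Pnmt behaved otherwise. In the CVLM it had r of 0.76 with Th and 0.73 with Dbh (rho 0.71 and 0.64), and in the RVLM 0.57 with Th but 0.25 with Dbh (adjusted p = 0.0038 and 0.272, permutation test). In the NTS both values were near 0, at -0.01 and -0.05 (adjusted p = 0.964 and 0.81, permutation test). Whether the r differed between regions was not tested.

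Ddc had r of 0.67 with Th in the NTS, 0.27 (CVLM) and 0.42 (RVLM). The CVLM value was 0.51 without the 2 libraries farthest in Th, and 0.58 without the 2 libraries that stood apart (adjusted p = 0.0002, permutation test), where it had not passed with them (adjusted p = 0.24). Between regions of the same rat, 0 of 18 correlations of a gene with itself passed. The highest of them was Slc18a2 in the NTS and CVLM, with r = 0.43 and rho = 0.43 (adjusted p = 0.0936, permutation test), and Dbh in the CVLM and RVLM had r = -0.32 and rho = -0.39 (adjusted p = 0.215, permutation test).

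The genes most like Dbh outside the set were named by the highest r over the same 46 libraries, as a description. In the NTS these were Calcr (r = 0.71), which encodes the calcitonin receptor, Gda (0.68), the neuropeptide gene Gal (0.68), Ntf3 (0.65) and Tph2 (0.64). In the CVLM they were Gal (0.76), Fxyd6 (0.76), LOC100912228 (0.75), Cartpt (0.73), the gene of the CART peptide, and Ppp1r17 (0.70). In the RVLM they were Kcnk15 (0.65), Igsf5 (0.63), Alkal2 (0.60), the orexin receptor gene Hcrtr1 (0.59) and Gabrq (0.57). Over the 30 group means of region, strain and age, Gal (0.98), Il34 (0.98), Plk2 (0.98), Asb4 (0.98) and LOC100912228 (0.98) were most like Dbh, beside Th at 0.96, Slc18a2 at 0.95, Slc6a2 at 0.92, Ddc at 0.77 and Pnmt at -0.03. These means differ mainly by region.

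Other genes of the pathway were taken from 6 lists with 36 genes, of which 24 (NTS), 25 (CVLM) and 22 (RVLM) passed the filter. In the strain contrasts, 0 values were higher and 5 lower in the NTS, 0 and 6 in the CVLM, and 1 and 3 in the RVLM, at 6 contrasts a gene, beside 4.78%, 5.85% and 4.75% of all genes' values called. Qdpr, the reductase that regenerates tetrahydrobiopterin after each hydroxylation, was lower in SHR by 0.30 in the CVLM and 0.33 in the RVLM as a mean (adjusted p = 4.45e-06 and 1.15e-05, edgeR). It also rose with age in the CVLM, by 0.84 in SHR and 0.80 in WKY from 8 to 24 wk. Gch1, the first enzyme of cofactor synthesis, was lower in SHR by 0.99 in the NTS at 8 wk (SE 0.30, adjusted p = 0.0453, edgeR), the age and region at which Slc18a2 and Th were lower. Cyb561, which brings electrons for Dbh into the vesicle, was lower there by 0.36 (SE 0.11, adjusted p = 0.0361, edgeR), and Dnajc12, a chaperone of the hydroxylases, by 0.23 as a mean over the ages (adjusted p = 0.0293, edgeR). At 8 wk, 3 of the 5 WKY rats and none of the SHR carried the library number 2. With the number as a term Slc18a2 and Th did not pass there, and Gch1 and Cyb561 were not tested with it. At 10 wk in SHR, Gch1 rose by 0.97 and Cyb561 by 0.36 in the NTS, beside Slc18a2 and Th, in the contrast that the library number shares.

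Tfap2b, a transcription factor of noradrenergic neurons, was lower in SHR by 0.54 in the NTS (SE 0.14, adjusted p = 0.00453) and higher by 0.78 in the RVLM (SE 0.21, adjusted p = 0.00947, edgeR), as means over the ages. The difference between these strain effects was itself called, at -1.33 (SE 0.23, adjusted p = 8.63e-05, edgeR). Among the other factors, Hand2 was at 0 in every library. Of the carriers, Slc6a4 was lower in SHR in the CVLM at 10 wk by 3.56 (SE 1.03, adjusted p = 0.0428, edgeR), a contrast that includes the WKY library with 29.6 CPM of it. In the list of breakdown enzymes, Maob, a monoamine oxidase, was lower in SHR in the CVLM at 8 wk (-0.35) and Akr1b1, an aldose reductase, at 24 wk (-0.38).

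Between regions, the pathway genes had 75 values higher and 33 lower in the first region of 156, where 53.1% of all genes' values were called. Among the peptides, Gal exceeded its RVLM level in the NTS by 4.19 in WKY and 3.36 in SHR, Npy by 5.17 and 3.28 and Cartpt by 2.04 and 1.56 (log2, edgeR). Prlh, which encodes prolactin-releasing peptide, exceeded its CVLM level in the NTS by 5.72 and 4.70. Genes of cofactor synthesis and recycling went both ways between the NTS and RVLM. Gch1 went the way of Th and Dbh with 1.58 and 1.34 more (NTS over RVLM), as did Pcbd1 with 0.93 and 0.80. Gchfr, the regulator of Gch1, was lower in the NTS by 1.3 and 1.09, and Qdpr by 0.91 and 0.68.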

How the data were processed

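Total RNA of tissue punches was sequenced, and per the study's methods the authors mapped reads to the rat build rn6 with STAR and deposited the expected counts of RSEM, 1 table per region with 1 column per rat. The methods name a batch correction of counts, and whether the deposited tables hold it is not given in the sources used here. Of the deposited values, 5.02% (NTS), 4.95% (CVLM) and 4.88% (RVLM) were not whole, and all were rounded. All values of the 6 genes were whole.

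Each region was fitted apart with edgeR 4.0.16 (quasi-likelihood, TMM, R 4.3.3) over 10 groups of strain and age, after genes were kept whose highest regularized log count (DESeq2 1.42.0) in the region was at least 3.5, which left 13793, 13408 and 13411 genes. Regions were compared over 14043 genes with the rat as a block. P-values were adjusted over all genes of a contrast by the Benjamini-Hochberg method, and 0.05 was the threshold for a call. Ratios and correlations used log2 CPM with a prior count of 2 and permutation tests (scipy 1.17.1). Replicates are separate animals by the labels.

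The 6 genes and the other lists were chosen with earlier results of these data known. Some listed genes are not reported here and were left out of the counts. Named beyond the 6 were the pathway genes that passed a test and the 5 genes most like Dbh in each setting. The fits were tested on simulated counts with known changes. Alternatives were another scaling, no filter, the replicate block, the library number, DESeq2, limma 3.58.1 and leaving out libraries.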

Additional observations from a re-analysis of the deposited data

Results flagged for a closer look

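Of 126 groups of 4 to 6 libraries, 13 values stood apart from the rest of their group by Dixon's test at 95%, where chance flags about 1 in 20 groups. Of these, 5 come from 1 library, the RVLM of SHR replicate 2 at 8 wk, which had 144 CPM of Th, 59.3 of Dbh, 46.5 of Pnmt, 55.1 of Slc18a2 and 15.9 of Slc6a2, the highest of its group for each. In the RVLM of 10 wk, Dbh was 25.7 CPM in SHR replicate 4 and 6.02 CPM in WKY replicate 3, and Pnmt was 2.15 CPM in WKY replicate 2. Slc6a2 was 9.82 CPM in the RVLM of SHR replicate 4 at 12 wk. In the CVLM of SHR, Th was 188 CPM in replicate 3 at 12 wk and Ddc was 10.5 CPM in replicate 3 at 24 wk, the lowest of its group. In the NTS of SHR, Pnmt was 5.23 CPM in replicate 4 at 8 wk and 13 CPM in replicate 1 at 16 wk. Causes of these values were not tested.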

How the results depend on the processing

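Of 1343 alternative values, 1284 were counted as unchanged. For single values this means that no call was lost, gained or reversed, and for counts that they stayed within 1.5 times of the reported one. Single values here were the called strain and age values and the ratios to Dbh. With 1 rat left out, the ratios were given no p-value, so a loss or gain of a call could not be seen in those fits. Of the alternatives of single values, 34 lost a call, 2 gained one, and 0 reversed a call. All 34 losses fell on the strain and age values called as reported. Some ratios near 0 that were not called changed sign. Th to Dbh in the NTS, reported at 0.0206, ran from -0.0261 to 0.0208 over 4 settings. Other values not called as reported entered only through counts, and several of them passed in an alternative, as given above. Of the strain differences, 2 were called as reported, 1 without the filter on low values, 1 with each age fitted alone, 0 with the library number as a term, 0 without the number-2 libraries outside 10 wk, 0 at an adjusted p of at most 0.01 with at least 2-fold, and 12 at an adjusted p under 0.2. The 1 with each age fitted alone was Th in the RVLM at 10 wk, and both NTS calls were lost in that setting. Leaving out 1 library at a time gave 1 to 5. Th in the NTS at 8 wk was the call lost without the filter (-0.54, adjusted p = 0.0649). Of the changes with age, 6 were called as reported, 1 with the library number as a term, 1 at the stricter threshold, and 4 to 7 with 1 library left out. The 1 with the number as a term was Slc18a2 in the NTS of SHR at 16 wk, which was not among the 6. For a strain difference at 1 age against the other ages the count of 0 became 2 with DESeq2 and 0 to 1 with 1 library left out. For the strain difference between regions the count of 0 became 1 without the rat as replicate block (Dbh, -1.0, adjusted p = 0.0307) and 5 with limma's voom. The 2 ratios to Dbh became 4 without the number-2 libraries outside 10 wk. Causes of these changes were not tested.

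The replicate numbers were not taken to pair SHR with WKY rats, since not every pair with the same number had deviations correlated above 0.1. Of 54 pairs, 32 did (-0.33 to 0.55), and 22 correlated best with their own number. With the replicate block, 2 strain values and 0 values of 1 age against the others were called, as without it, and 7 changes with age, the added one being Slc18a2 in the NTS of SHR at 16 wk (0.67, adjusted p = 0.0358, edgeR). The region differences stayed at 30 called without the block. Counts were lowest for Pnmt in the NTS and Slc6a2 in the RVLM, which fell to 1 count in a library.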
